A study of Mus musculus with 6 samples.

Results

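The 10 genes described here serve chondroitin sulfate synthesis and sulfation, and were measured in growth plates of mice labelled as lacking ATF6a or ATF6b and of wild-type mice. The genes were listed by function, namely sulfate transport and activation, sugar precursor supply, chain synthesis and sulfotransferases. Every non-control probe whose RefSeq accession maps to these symbols was taken. That gave 11 probes for 10 genes, out of 26582 probes matched to 20145 genes on the array. All 10 genes passed the filter on dim probes and entered the test, as did 19122 genes in all.

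Chondroitin sulfate is a sugar chain of alternating glucuronic acid and N-acetylgalactosamine, built in the Golgi on a core protein through a linker that starts with xylose. Cartilage carries most of it on aggrecan, whose negatively charged chains hold water and give the tissue its resistance to compression. Sulfate has to enter the cell, be activated to PAPS (the universal sulfate donor) and be placed on the chain by sulfotransferases, and defects at several of these steps cause short stature or chondrodysplasia in mice and humans.

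The groups were ATF6aKO, ATF6bKO and WT mice, with 2 arrays each. All were untreated male C57BL/6J mice aged 4 weeks, and RNA came from the tibial growth plate, the cartilage through which long bones lengthen, isolated with a laser microdissector. ATF6a (gene Atf6) and ATF6b (gene Atf6b) are transcription factors of the endoplasmic reticulum that are cleaved and released under protein folding stress, and the series asks about the part of ATF6 in long bone growth. Whole-transcriptome amplified and Cy5-labelled cDNA from 150 ng of RNA was hybridised to Agilent arrays. The labels describe the knockouts by genotype name only, with no allele, and leave unsaid whether replicate arrays are separate animals, so the p-values cover array-to-array spread that may be technical. Precision is limited by the number of arrays.

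The arrays were checked before the genes were described. The 4 knockout arrays lay on 1 slide read in 2 channels, of which the red one (Cy5) was used, and the 2 WT arrays lay on another slide read in 1 channel. The median background was 37 on each knockout array and 17 on each WT array. In both comparisons with WT, slide, channel, scan protocol and background level therefore cannot be told apart from genotype. ATF6aKO and ATF6bKO shared a slide, on which each genotype filled its own row. In that comparison the row on the slide therefore cannot be told apart from genotype. The share of spots well above background was 91.4% and 91.7% on the ATF6aKO arrays, 90.3% and 86.9% on the ATF6bKO arrays, and 96.7% and 90.3% on the WT arrays. The probes for the targeted genes did not separate the labels. Atf6 differed by -0.15 (log2) between ATF6aKO and WT (limma adjusted p = 0.498). Atf6b differed by -0.54 between ATF6bKO and WT (limma adjusted p = 0.0824). Where the deletions lie is not given in the labels, and the probes therefore do not check the genotypes.

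The tissue label was set against marker lists, and WT replicate 1 stood apart. The summed level of 8 chondrocyte markers, on the log2 scale of the summed intensity, was 16.34 and 16.47 on the ATF6aKO arrays, 15.65 and 14.52 on the ATF6bKO arrays, and 13.64 and 14.02 on the WT arrays. All 8 were well above background on both ATF6aKO arrays and on ATF6bKO replicate 1, and the marker below background elsewhere was Sox9, the chondrocyte transcription factor, on ATF6bKO replicate 2 and both WT arrays. The order of the genotypes in that sum was ATF6aKO, then ATF6bKO, then WT, with no overlap. The summed level of the 5 measured osteoblast and osteocyte markers was 11.69 and 11.86 on the ATF6aKO arrays, 11.00 and 10.75 on the ATF6bKO arrays, and 16.32 and 10.99 on the WT arrays. That of the 6 osteoclast markers was 10.92 and 11.12 on the ATF6aKO arrays, 10.97 and 10.91 on the ATF6bKO arrays, and 14.00 and 10.69 on the WT arrays. That of the 5 measured erythroid markers was 9.73 and 9.49 on the ATF6aKO arrays, 9.70 and 9.73 on the ATF6bKO arrays, and 14.92 and 12.37 on the WT arrays, and Hbb-bt (a beta globin) was below background on all 4 knockout arrays. WT replicate 1 thus held far more bone and osteoclast signal than any other array, and both WT arrays held more erythroid signal. The sum for hypertrophic chondrocytes was 13.00 and 14.28 on the ATF6aKO arrays, 13.24 and 11.62 on the ATF6bKO arrays, and 14.03 and 10.21 on the WT arrays, with ATF6aKO replicate 2 the highest and WT replicate 2 the lowest. Endothelial sums lay at 10.61 to 10.81 on the knockout arrays and 11.83 to 11.86 in WT. Muscle sums were 11.15 to 11.98 in the knockouts and 10.52 to 10.91 in WT, but 2 of the 6 muscle markers rose and 2 fell in each knockout, with median log2 differences of 0.08 in ATF6aKO and 0.11 in ATF6bKO. Macrophage sums were 13.36 to 13.84 in the knockouts and 13.14 to 13.18 in WT, while most of the 5 measured markers went the other way. In ATF6aKO 1 macrophage marker rose and 3 fell, with a median log2 difference of -0.78. In ATF6bKO 1 rose and 2 fell, with a median of -0.62. The limma test against WT called 42.7% of all genes in ATF6aKO and 37.6% in ATF6bKO. In bulk tissue, fewer cells of a type and less RNA per cell cannot be told apart, and the part that these marker levels play in the results was not tested.

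In ATF6aKO against WT, 6 of the 10 genes rose, 1 fell and 3 did not pass the test. Papss2, Ugdh, Chsy1, Csgalnact1, Chst11 and Slc26a2 rose, Chst3 fell, and Papss1, Xylt1 and Chpf were not called. Over all 19122 genes the same test called 42.7% in either direction, 20.3% higher and 22.3% lower, and 7 of the 10 are to be read against that share. The median log2 difference was 0.88 over the 10 genes and -0.03 over all genes. The 2 groups of arrays did not overlap, with ATF6aKO above WT, for 7 of the 10 genes and for 34.6% of all genes, and with ATF6aKO below WT for 2 of the 10 and 38.6% of all genes.

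In ATF6bKO against WT, Papss2 and Csgalnact1 rose, none of the 10 fell and 8 did not pass the test. Over all genes the test called 37.6% in either direction, 17.3% higher and 20.3% lower, so 2 of 10 is a smaller share than the background. The median log2 difference was 0.22 over the 10 genes and -0.05 over all genes. ATF6bKO arrays lay wholly above WT for 4 of the 10 genes and 33.3% of all genes, and wholly below for 2 of the 10 and 39.5% of all genes. Both comparisons use the same WT arrays.

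In ATF6aKO against ATF6bKO, none of the 10 genes and none of the 19122 genes passed (0% called in either direction, limma; smallest adjusted p over all genes 0.611). At an unadjusted p under 0.05 there were 1169 genes, or 6.11%, and 4 of the 10 were among them, namely Papss2, Ugdh, Csgalnact1 and Chst11, all with the higher value in ATF6aKO. The median log2 difference was 0.59 over the 10 genes and -0.0047 over all genes. ATF6aKO arrays lay wholly above ATF6bKO for 6 of the 10 genes and 20.1% of all genes, and wholly below for 0 of the 10 and 16.9% of all genes.

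**Figure D1:**
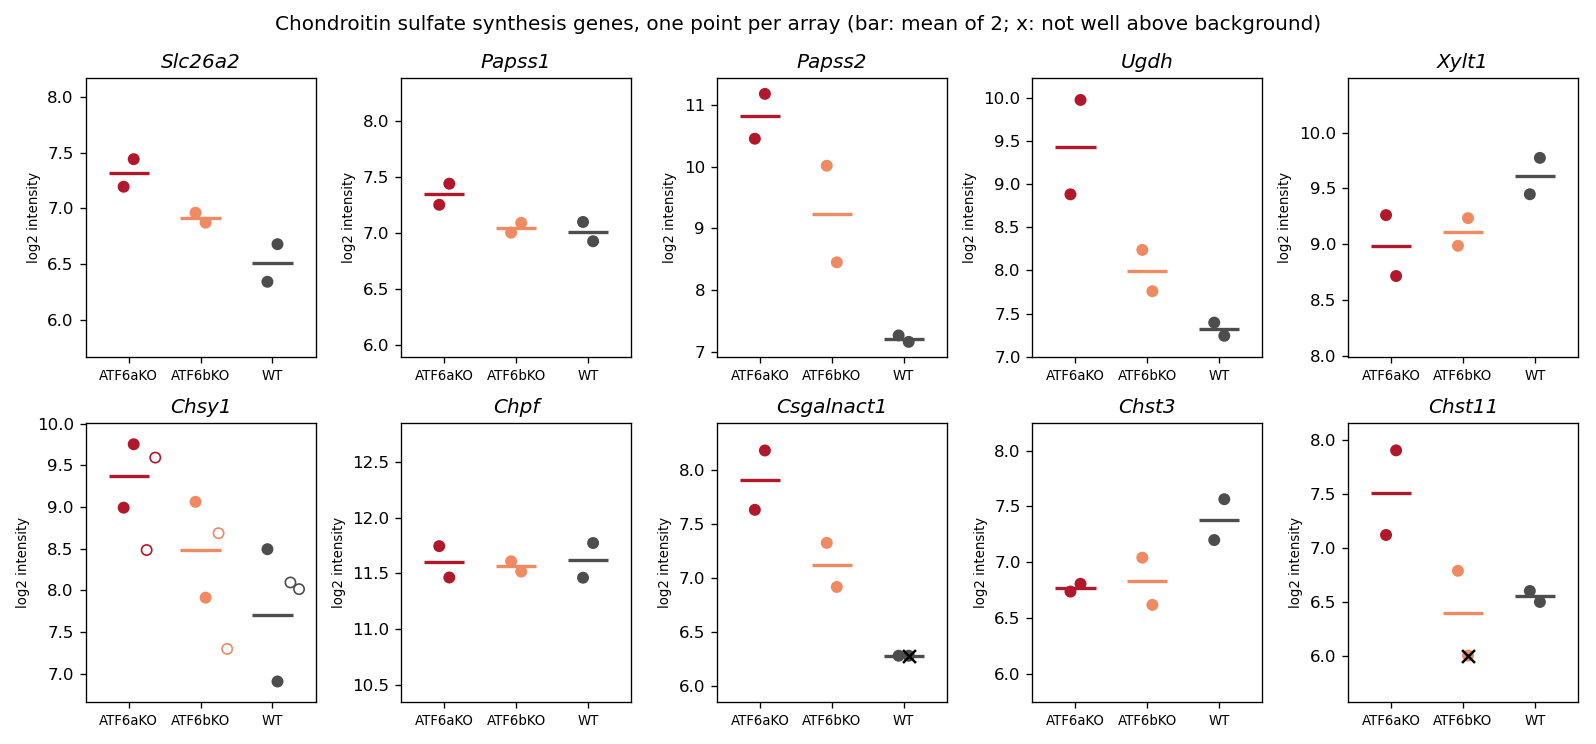
Normalised log2 intensity (vertical axis) of each gene on each array, with ATF6aKO on the left, ATF6bKO in the middle and WT on the right; points are arrays, the bar is the mean of 2, and a cross marks an array where the probe was not well above background. Papss2, Ugdh, Csgalnact1 and Slc26a2 descend over the 3 genotypes without overlap, whereas Chpf shows no separation.

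Sulfate reaches the chain through Slc26a2, the sulfate transporter of the chondrocyte membrane, whose loss of function causes diastrophic dysplasia in humans. On the normalised log2 scale it read 7.20 and 7.44 on the ATF6aKO arrays, 6.96 and 6.87 on the ATF6bKO arrays, and 6.34 and 6.68 on the WT arrays. The 3 genotypes did not overlap, and the spaces between them were smaller than the gap between the WT arrays. It was 1.75-fold higher in ATF6aKO than in WT (log2 difference 0.81 ± 0.19, SE; limma adjusted p = 0.0115) and 0.41 higher on the log2 scale in ATF6bKO than in WT (limma adjusted p = 0.123). Without ATF6aKO replicate 2 the difference between ATF6aKO and WT was 0.68 and no longer passed (limma adjusted p = 0.0691). Without WT replicate 1 it was 0.64 and passed (limma adjusted p = 0.0413). With Feature Extraction's processed signal in place of the normexp correction it was 1.85, over 1.5 times as large, and the difference between ATF6bKO and WT was 1.01 and passed (limma adjusted p = 0.0194). Scaling to the 75th percentile also brought the ATF6bKO difference past the threshold, at 0.81 (limma adjusted p = 0.0198).

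PAPS is made from sulfate and ATP by 2 bifunctional synthetases, Papss1 and Papss2, and Papss2 is the form whose mutation shortens the limbs of the brachymorphic mouse. Papss2 stood at 10.45 and 11.17 on the ATF6aKO arrays, 10.01 and 8.45 on the ATF6bKO arrays, and 7.27 and 7.17 on the WT arrays (normalised log2 intensity). Every ATF6aKO array lay above every ATF6bKO array, and every ATF6bKO array above every WT array. The ATF6bKO arrays lay 1.56 apart, the largest gap of any of the 10 genes within that genotype, while the WT arrays lay close together. Papss2 was 12.0-fold higher in ATF6aKO than in WT (log2 difference 3.59 ± 0.47, SE, with a 95% interval of 2.50 to 4.68; limma adjusted p = 0.00148), and this was the largest difference among the 10 genes. In ATF6bKO it was 4.03-fold higher than in WT (log2 difference 2.01, 95% interval 0.92 to 3.11; limma adjusted p = 0.0137).

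The Papss2 difference between ATF6aKO and WT kept its call whichever array was left out, at 3.23 to 3.95. Between ATF6bKO and WT it was 1.23 without ATF6bKO replicate 1 and missed the threshold (limma adjusted p = 0.0503). That ATF6bKO call was also lost with a trended and robust variance (limma adjusted p = 0.0597) and in the authors' deposited table, at 1.42 (limma adjusted p = 0.0744). Between ATF6aKO and ATF6bKO it was 1.58 (95% interval 0.49 to 2.67; limma adjusted p = 0.669).

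Papss1, the more broadly expressed synthetase, gave a different picture. It stood at 7.25 and 7.44 on the ATF6aKO arrays, 7.003 and 7.09 on the ATF6bKO arrays, and 7.10 and 6.93 on the WT arrays. The ATF6aKO arrays lay above the rest by less than the gap between the WT arrays, and ATF6bKO and WT overlapped. The log2 difference was 0.34 (95% interval -0.05 to 0.72; limma adjusted p = 0.137) for ATF6aKO against WT and 0.03 (95% interval -0.35 to 0.42; limma adjusted p = 0.885) for ATF6bKO against WT. Scaling to the 75th percentile, under which the median difference of all genes was 0.13 in place of -0.03, gave 0.55 for ATF6aKO against WT and a call (limma adjusted p = 0.0344).

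Ugdh, UDP-glucose dehydrogenase, makes the UDP-glucuronic acid that supplies the glucuronic acid of the chain and of the linker. It stood at 8.88 and 9.98 on the ATF6aKO arrays, 8.24 and 7.76 on the ATF6bKO arrays, and 7.40 and 7.24 on the WT arrays. The genotypes again descended in that order with no overlap, and the ATF6aKO arrays were the farthest apart. Ugdh was 4.32-fold higher in ATF6aKO than in WT (log2 difference 2.11 ± 0.34, SE; limma adjusted p = 0.0031), and its value lay between 1.57 and 2.66 without any 1 array, called each time. In ATF6bKO the difference from WT was 0.68 (95% interval -0.12 to 1.48; limma adjusted p = 0.158). Between ATF6aKO and ATF6bKO it was 1.43 (95% interval 0.63 to 2.24; limma adjusted p = 0.625).

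Xylt1, xylosyltransferase 1, places the xylose that starts the linker on the core protein. It stood at 9.26 and 8.71 on the ATF6aKO arrays, 8.99 and 9.23 on the ATF6bKO arrays, and 9.45 and 9.77 on the WT arrays. Both knockouts lay below WT without overlap and overlapped each other, opposite in direction to the precursor genes. The log2 difference from WT was -0.62 in ATF6aKO (95% interval -1.16 to -0.08; limma adjusted p = 0.0625) and -0.50 in ATF6bKO (limma adjusted p = 0.125), neither past the threshold. For ATF6aKO it passed without ATF6aKO replicate 1, at -0.90 (limma adjusted p = 0.0317), and without WT replicate 1, at -0.79 (limma adjusted p = 0.036). It was -0.35 without ATF6aKO replicate 2 (limma adjusted p = 0.298) and -0.46 without WT replicate 2 (limma adjusted p = 0.203). With a trended and robust variance it passed narrowly (limma adjusted p = 0.0492).

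Csgalnact1 encodes the transferase that adds the first N-acetylgalactosamine and so commits the linker to chondroitin sulfate rather than heparan sulfate, and its loss in mice lowers the chondroitin sulfate of cartilage. It stood at 7.63 and 8.18 on the ATF6aKO arrays, 7.33 and 6.92 on the ATF6bKO arrays, and 6.28 and 6.28 on the WT arrays. The descending order held on every array, and on WT replicate 2 the probe was not well above background. Csgalnact1 was 3.08-fold higher in ATF6aKO than in WT (log2 difference 1.62 ± 0.23, SE; limma adjusted p = 0.00195), with 1.35 to 1.90 without any 1 array and a call each time. It was 1.79-fold higher in ATF6bKO than in WT (log2 difference 0.84 ± 0.23; limma adjusted p = 0.0255), but without ATF6bKO replicate 1 the difference was 0.64 and not called (limma adjusted p = 0.165). With the processed signal the differences were 3.67 for ATF6aKO and 2.55 for ATF6bKO against WT, and scaling to the 75th percentile gave 1.26 for ATF6bKO.

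Chain elongation was represented by Chsy1, a synthase that holds both transferase activities of the repeat, and by Chpf, the chondroitin polymerising factor that works in a complex with it. Chsy1 stood at 8.99 and 9.75 on the ATF6aKO arrays, 9.06 and 7.91 on the ATF6bKO arrays, and 8.50 and 6.91 on the WT arrays. The ATF6aKO arrays lay above WT, ATF6bKO overlapped both, and the WT arrays lay 1.59 apart, the largest gap within WT. Chsy1 was 3.19-fold higher in ATF6aKO than in WT (log2 difference 1.67 ± 0.56, SE; limma adjusted p = 0.0458) and differed by 0.79 in ATF6bKO (95% interval -0.52 to 2.10; limma adjusted p = 0.303).

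The Chsy1 call was lost under several alternatives. It did not pass with a trended and robust variance (limma adjusted p = 0.166), with the processed signal (limma adjusted p = 0.0804, and 0.0842 when scaled to the 75th percentile) or with the mean of its probes (limma adjusted p = 0.0617). The difference between ATF6aKO and WT was 2.05 without ATF6aKO replicate 1 (limma adjusted p = 0.0789), 1.29 without ATF6aKO replicate 2 (adjusted p = 0.243) and 0.88 without WT replicate 2 (adjusted p = 0.133), and none of these passed. Without WT replicate 1 it was 2.47 and passed (limma adjusted p = 0.00141), and in ATF6bKO it was then 1.58 and passed as well (limma adjusted p = 0.0158). The second, dimmer probe of Chsy1 read 8.49 and 9.59 on the ATF6aKO arrays, 8.69 and 7.30 on the ATF6bKO arrays, and 8.10 and 8.02 on the WT arrays. On that probe the difference was 0.98 ± 0.48 (SE) for ATF6aKO against WT (limma adjusted p = 0.135) and -0.06 for ATF6bKO against WT (limma adjusted p = 0.93). The probes thus gave the same sign for ATF6aKO, with a smaller size on the second, and opposite signs for ATF6bKO.

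Chpf stood at 11.74 and 11.46 on the ATF6aKO arrays, 11.61 and 11.52 on the ATF6bKO arrays, and 11.46 and 11.77 on the WT arrays. All 3 genotypes overlapped. Its log2 difference from WT was -0.01 (95% interval -0.45 to 0.42; limma adjusted p = 0.959) in ATF6aKO and -0.05 (95% interval -0.49 to 0.38; limma adjusted p = 0.838) in ATF6bKO, and the sign turned under some alternatives in both.

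The sulfotransferases of the list place sulfate at different carbons of N-acetylgalactosamine, Chst11 at carbon 4 (the main form in growth plate cartilage) and Chst3 at carbon 6. Chst11 stood at 7.12 and 7.90 on the ATF6aKO arrays, 6.79 and 6.00 on the ATF6bKO arrays, and 6.60 and 6.50 on the WT arrays. ATF6aKO lay above both other genotypes, which overlapped, and on ATF6bKO replicate 2 the probe was not well above background. Chst11 was 1.95-fold higher in ATF6aKO than in WT (log2 difference 0.96 ± 0.32, SE; limma adjusted p = 0.0459) and differed by -0.16 in ATF6bKO (95% interval -0.91 to 0.60; limma adjusted p = 0.731). The call was lost without ATF6aKO replicate 2, at 0.57 (limma adjusted p = 0.256), and without WT replicate 2, at 0.91 (limma adjusted p = 0.0758). With the processed signal the difference was 1.97 and not called (limma adjusted p = 0.139), and the call was also lost with a trended and robust variance (limma adjusted p = 0.0626) and with the replicate block (limma adjusted p = 0.0672).

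Chst3, whose mutation causes a spondyloepiphyseal dysplasia in humans, stood at 6.74 and 6.81 on the ATF6aKO arrays, 7.04 and 6.62 on the ATF6bKO arrays, and 7.20 and 7.57 on the WT arrays. Both knockouts lay below WT and overlapped each other. Chst3 was 1.53-fold lower in ATF6aKO than in WT (log2 difference -0.61 ± 0.21, SE; limma adjusted p = 0.0484) and differed by -0.55 in ATF6bKO (limma adjusted p = 0.0723). Leaving out any array other than WT replicate 1 ended the call, with differences of -0.43 (limma adjusted p = 0.193, without WT replicate 2) to -0.64 (limma adjusted p = 0.133, without ATF6aKO replicate 2). Without WT replicate 1 the difference was -0.79 in ATF6aKO (limma adjusted p = 0.0231) and -0.74 in ATF6bKO (limma adjusted p = 0.0363), whereas in ATF6bKO it was -0.34 without ATF6bKO replicate 2 (limma adjusted p = 0.357) and -0.37 without WT replicate 2 (limma adjusted p = 0.268). The Chst3 call in ATF6aKO was also lost with 75th percentile scaling, at -0.41 (limma adjusted p = 0.152), with the processed signal, at -1.03 (limma adjusted p = 0.0693), and with the replicate block (limma adjusted p = 0.0722). Chst11 and Chst3 thus lay on opposite sides of WT in ATF6aKO, which describes 2 probes and does not measure sulfation.

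**Figure D2:**
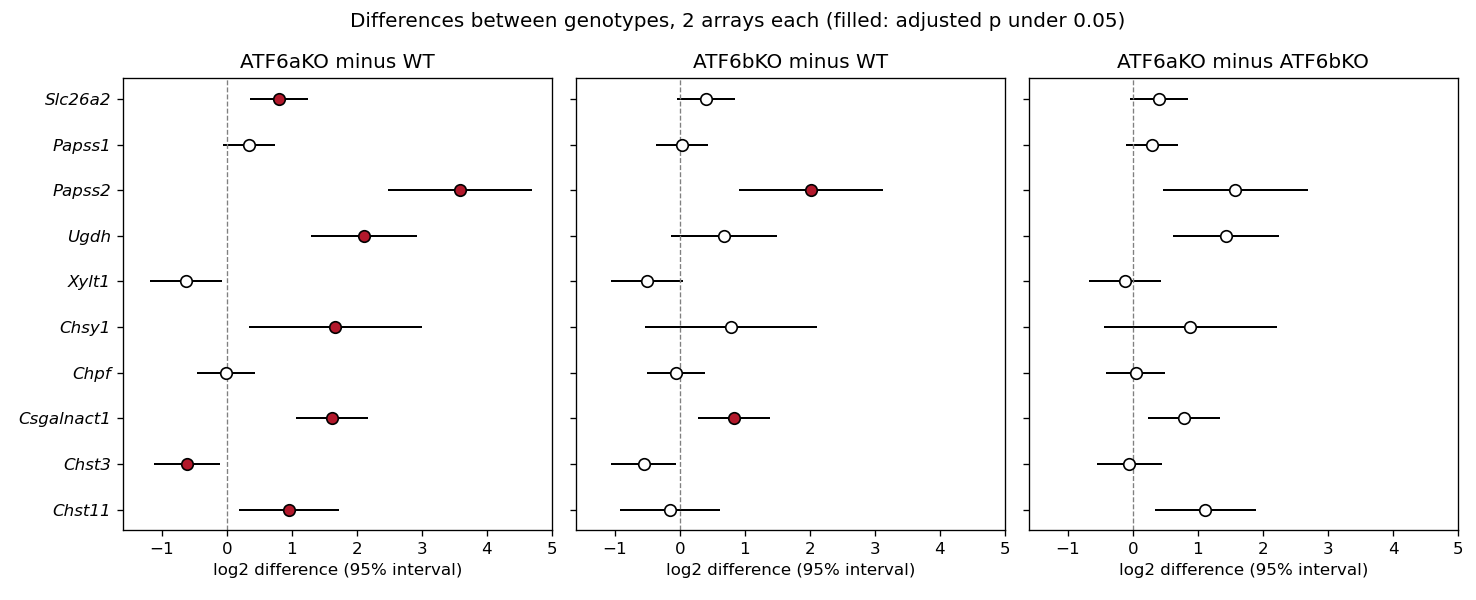
Log2 difference of each gene (horizontal axis) with its 95% interval from the limma fit, for ATF6aKO minus WT, ATF6bKO minus WT and ATF6aKO minus ATF6bKO; filled points have an adjusted p under 0.05. In ATF6aKO minus WT 7 points are filled, in ATF6bKO minus WT 2, and in ATF6aKO minus ATF6bKO 0.

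Within each knockout, the same array was the higher one for most of the genes. ATF6aKO replicate 2 was above replicate 1 for 8 of the 10 genes, all but Xylt1 and Chpf. ATF6bKO replicate 1 was above replicate 2 for 8 of the 10, all but Papss1 and Xylt1. In WT, replicate 1 was higher for 5 of the 10 and replicate 2 for 4, and Csgalnact1 was equal on both. The shares of all genes in these orders were not measured, so these counts have no background to be read against. ATF6bKO replicate 1 also had the higher summed chondrocyte markers and ATF6aKO replicate 2 the slightly higher sum. In WT the higher sum was that of replicate 2. All 6 arrays fell in the order ATF6aKO above ATF6bKO above WT for 4 of the 10 genes (Slc26a2, Papss2, Ugdh and Csgalnact1), for 6.57% of all genes, and for 6 of the 8 chondrocyte markers (Col2a1, Acan, Col9a1, Col11a1, Matn1 and Hapln1). None of the 10 followed the reverse order, which 7.25% of all genes did. The chondrocyte markers themselves rose in ATF6aKO against WT for 7 of 8, with a median log2 difference of 3.13. In ATF6bKO against WT 5 of 8 rose and 1 fell, with a median of 1.96. Of all genes, 20.3% rose and 22.3% fell in ATF6aKO, and 17.3% rose and 20.3% fell in ATF6bKO. How far the levels of the 10 genes go with these markers was not tested.

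**Figure D3:**
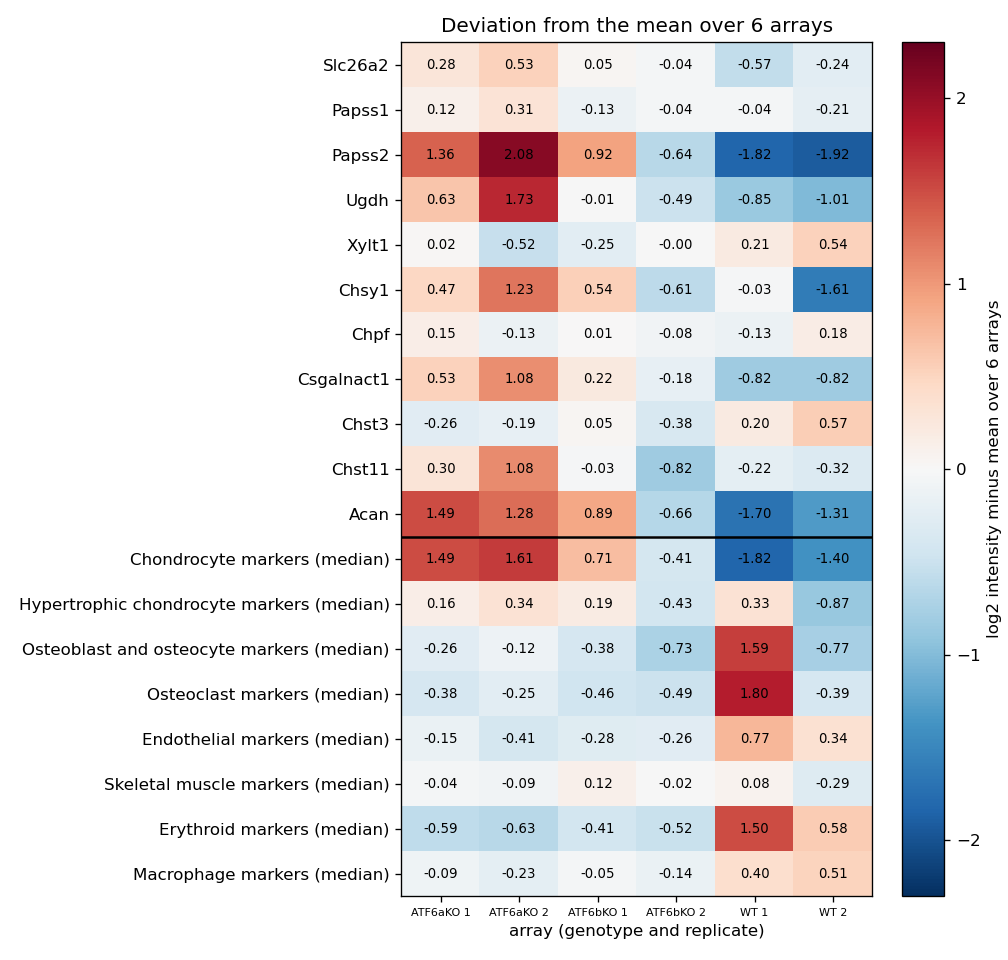
Colour and number give the log2 intensity minus the mean over the 6 arrays for the 10 genes and Acan (rows above the line), and the median of that deviation over each cell type's markers (rows below it), with arrays in columns from ATF6aKO on the left to WT on the right. Papss2, Ugdh, Csgalnact1, Acan and the chondrocyte markers are highest in the ATF6aKO columns and lowest in the WT columns, and the osteoblast and osteoclast rows stand out on WT replicate 1.

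Because ATF6 proteins are DNA-binding factors, the sequence just upstream of the genes was read for the elements they are known to bind. The RefSeq promoter table (GRCm38.p6) covered 7 of the 10 genes in 9 windows of 250 bases before to 50 after a start. Slc26a2, Xylt1 and Csgalnact1 were not among them. The sequences shown are those of Papss2, with the largest difference between ATF6aKO and WT, Ugdh, with the next largest, and Chpf, with the smallest, limited to the bases before the annotated start of the gene. They lie at chr19:32595465-32595668 on the plus strand for Papss2, chr5:65435843-65436092 on the minus strand for Ugdh and chr1:75479472-75479721 on the minus strand for Chpf. Each is written 5′ to 3′ in the direction of the gene, and capitals mark CCACG on either strand, the part of the element that ATF6 contacts.
Papss2: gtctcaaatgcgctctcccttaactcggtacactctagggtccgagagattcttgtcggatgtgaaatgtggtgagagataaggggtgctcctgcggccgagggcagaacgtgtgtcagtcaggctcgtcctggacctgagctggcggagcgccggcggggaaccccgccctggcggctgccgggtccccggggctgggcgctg
Ugdh: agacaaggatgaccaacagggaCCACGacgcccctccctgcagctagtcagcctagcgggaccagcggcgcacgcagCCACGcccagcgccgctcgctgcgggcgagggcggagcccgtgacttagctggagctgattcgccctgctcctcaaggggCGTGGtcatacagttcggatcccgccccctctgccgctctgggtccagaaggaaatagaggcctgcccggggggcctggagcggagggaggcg
Chpf: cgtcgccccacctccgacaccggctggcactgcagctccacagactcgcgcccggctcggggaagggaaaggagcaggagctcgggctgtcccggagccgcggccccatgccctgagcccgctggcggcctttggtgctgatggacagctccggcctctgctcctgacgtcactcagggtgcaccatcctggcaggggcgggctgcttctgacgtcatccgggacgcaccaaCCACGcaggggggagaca

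The full endoplasmic reticulum stress element (CCAAT, 9 bases of any kind, then CCACG) was searched on both strands and was in 0 of the 9 windows and in 0.119% of 32851 windows of the same length in the table. The second form (ATTGG, 1 base of any kind, then CCACG) was in 0 of the 9 and 0.0365% of all windows. The site TGACGTGG was in 0 of the 9 and 0.676% of all. The letters CCACG, which are part of the first 2 elements, were in 7 of the 9 windows and 32.8% of all. They covered Papss1, Ugdh, Chsy1, Chpf, Chst3 and Chst11 but not Papss2. Some of these genes have more than 1 window, so the 9 windows are not separate genes. A share per gene over all genes was not measured. A match is a description of the letters in the window and not a binding site. Among the sequences printed, Ugdh holds it 3 times, Chpf 1 time and Papss2 0 times.

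The rest of the pathway was described from 9 lists of 83 companion genes, of which 76 were tested. In ATF6aKO against WT 17 of them rose and 15 fell, which is 42.1% called against 42.7% of all genes, with a median log2 difference of -0.02. In ATF6bKO against WT 14 rose and 15 fell (38.2% called, against 37.6% of all genes), with a median of -0.14. None was called between ATF6aKO and ATF6bKO. The counts of each list are to be read against the shares over all genes. These were 20.3% higher and 22.3% lower in ATF6aKO, and 17.3% higher and 20.3% lower in ATF6bKO. The precursor lists come first.

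Of 10 genes of UDP-sugar supply, 5 rose and 0 fell in each knockout against WT. That is 50% called in each, against 42.7% of all genes in ATF6aKO and 37.6% in ATF6bKO. The list median was 0.77 in ATF6aKO and 0.66 in ATF6bKO. Gfpt1, the first enzyme of the hexosamine pathway that leads to N-acetylgalactosamine, stood at 10.14 and 10.55 on the ATF6aKO arrays, 9.34 and 8.97 on the ATF6bKO arrays, and 7.54 and 7.96 on the WT arrays. It was 6.03-fold higher in ATF6aKO and 2.65-fold higher in ATF6bKO than in WT (limma adjusted p = 0.000622 and 0.00388). Gnpnat1, a later enzyme of the same route, was 2.33-fold and 2.25-fold higher in ATF6aKO and ATF6bKO (limma adjusted p = 0.00133 and 0.00179). Ugp2, which makes the UDP-glucose that Ugdh oxidises, was 2.83-fold and 2.72-fold higher (limma adjusted p = 0.00251 and 0.00341), and averaging its probes gave log2 differences of 0.91 and 0.75, both called (limma adjusted p = 0.0106 and 0.0241).

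Slc35d1, which carries UDP-glucuronic acid and UDP-N-acetylgalactosamine into the endoplasmic reticulum and whose loss in mice shortens the skeleton, was picked out after its values were seen. It stood at 11.22 and 10.99 on the ATF6aKO arrays, 11.05 and 10.46 on the ATF6bKO arrays, and 8.38 and 6.01 on the WT arrays, and only 1 of the WT arrays measured it well above background. Both knockouts lay far above WT. Its log2 difference was 3.91 ± 0.65 (SE) in ATF6aKO and 3.56 ± 0.65 in ATF6bKO (limma adjusted p = 0.0033 and 0.00554). With a trended and robust variance the call in ATF6bKO was lost (limma adjusted p = 0.0578).

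PAPS handling beyond the synthetases showed no call in either knockout among 6 genes, with medians of 0.08 in ATF6aKO and 0.02 in ATF6bKO. In ATF6aKO against WT, 2 of 5 linker genes rose and 1 fell, and in ATF6bKO 1 rose and 1 fell. Pxylp1, the phosphatase that removes the phosphate from the linker xylose, was 3.46-fold and 2.18-fold higher in ATF6aKO and ATF6bKO (limma adjusted p = 0.00309 and 0.0205). In ATF6bKO it was no longer called without replicate 1 of that genotype, at a log2 difference of 0.70 (limma adjusted p = 0.116), or with the mean of its probes, at 0.33 (limma adjusted p = 0.242), which gave 0.82 and a call in ATF6aKO (limma adjusted p = 0.0168). Xylt2, the paralog of Xylt1 that dominates in many other tissues, was 2.04-fold and 1.78-fold lower in ATF6aKO and ATF6bKO (limma adjusted p = 0.00245 and 0.0062). Averaging all its probes brought Xylt2 to -0.28 in ATF6aKO and -0.19 in ATF6bKO with no call, and the call in ATF6bKO was also lost without ATF6bKO replicate 1 (limma adjusted p = 0.0568).

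Among the 3 other chain polymerisation genes, Chpf2, a paralog of Chpf, fell in both knockouts and the others were not called. Its log2 difference was -0.85 in ATF6aKO and -1.19 in ATF6bKO (limma adjusted p = 0.026 and 0.00853). Without ATF6aKO replicate 2 the first was -0.69 and not called (limma adjusted p = 0.146), nor was it without WT replicate 2, at -0.72 (limma adjusted p = 0.0703), or with the processed signal (limma adjusted p = 0.0552). Without ATF6bKO replicate 2 the difference in ATF6bKO was -0.88 and not called (limma adjusted p = 0.0562).

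Among 6 further sulfotransferases and epimerases of chondroitin and dermatan sulfate, 2 rose and 2 fell in each knockout. Dsel, related to the epimerase that turns glucuronic into iduronic acid, stood at 9.17 and 9.46 on the ATF6aKO arrays, 9.50 and 9.22 on the ATF6bKO arrays, and 7.33 and 7.42 on the WT arrays. It was 3.83-fold and 3.96-fold higher in ATF6aKO and ATF6bKO (limma adjusted p = 0.000659 and 0.000764). Ust, which sulfates the uronic acid, had log2 differences of 0.88 and 1.01 in ATF6aKO and ATF6bKO (limma adjusted p = 0.0136 and 0.00937), with only 1 WT array well above background. The Ust call in ATF6aKO was lost without either ATF6aKO array or WT replicate 2, at 0.66 to 0.89, and in ATF6bKO without replicate 1 of that genotype, at 0.82. Chst15, which adds a further sulfate at carbon 6 of chains already sulfated at carbon 4, was 1.94-fold lower in each knockout (limma adjusted p = 0.00363 in ATF6aKO and 0.00417 in ATF6bKO). Chst13, a further carbon 4 sulfotransferase, was 1.88-fold and 2.15-fold lower in ATF6aKO and ATF6bKO (limma adjusted p = 0.00658 and 0.00375). With the mean of their probes, Chst15 differed by -0.55 in ATF6aKO and -0.53 in ATF6bKO and Chst13 by -0.69 in ATF6bKO, all still called (limma adjusted p = 0.0251, 0.0324 and 0.0148).

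Of 10 carriers of chondroitin sulfate, 3 rose and 2 fell in ATF6aKO and 2 rose and 2 fell in ATF6bKO. Acan, aggrecan, stood at 13.61 and 13.40 on the ATF6aKO arrays, 13.00 and 11.45 on the ATF6bKO arrays, and 10.41 and 10.81 on the WT arrays. As with Papss2, the genotypes descended without overlap and the ATF6bKO arrays were the farthest apart. Acan was 7.42-fold higher in ATF6aKO and 3.07-fold higher in ATF6bKO than in WT (limma adjusted p = 0.00247 and 0.0247). The second call was lost without ATF6bKO replicate 1, at a log2 difference of 0.84 (limma adjusted p = 0.072), without either ATF6aKO array (limma adjusted p = 0.0528), with the processed signal (limma adjusted p = 0.0519) and with a trended and robust variance (limma adjusted p = 0.0954). Col9a2, a chain of type IX collagen, which can carry chondroitin sulfate, was 12.8-fold and 3.69-fold higher (limma adjusted p = 0.000622 and 0.00473). Cspg4, a carrier of pericytes and progenitor cells, had log2 differences of -0.53 and -0.98 in ATF6aKO and ATF6bKO (limma adjusted p = 0.031 and 0.00375), and in ATF6aKO the call was lost without any 1 array except ATF6aKO replicate 1.

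In the neighbouring pathways calls went in both directions. Of 16 genes of heparan sulfate synthesis, 3 rose and 4 fell in each knockout. That is 43.8% called in each, against 42.7% of all genes in ATF6aKO and 37.6% in ATF6bKO. Among those that rose was Hs2st1, whose probe read 13.98 to 15.05, higher than Acan on any array. What that probe measures at that level was not tested. Extl2 acts at the linker, and Hs3st3a1 is a sulfotransferase of that chain. Their log2 differences were 0.77 and 1.18 in ATF6aKO and 0.81 and 1.08 in ATF6bKO. Ext2, a subunit of the heparan sulfate polymerase, differed by -0.89 in ATF6aKO and -1.38 in ATF6bKO, with -0.71 and no call in ATF6aKO without its replicate 2 (limma adjusted p = 0.0972) and no call with the processed signal (limma adjusted p = 0.0667). Ndst2, a sulfotransferase of heparan sulfate and heparin, was at least 2.45-fold lower in ATF6aKO, where no array measured it well above background (limma adjusted p = 0.00106), and differed by -1.07 in ATF6bKO, where 1 array did. The calls of Extl2, Hs3st3a1 and Ext2 had limma adjusted p-values of 0.00352 to 0.0155, and that of Hs3st3a1 in ATF6bKO was lost without ATF6bKO replicate 1 (limma adjusted p = 0.0779).

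Of 7 genes of keratan sulfate synthesis, 1 rose and 2 fell in ATF6aKO, and 1 rose and 1 fell in ATF6bKO. That is 42.9% called in ATF6aKO and 28.6% in ATF6bKO, against 42.7% and 37.6% of all genes. B4galt4, a galactosyltransferase, was 1.98-fold and 2.07-fold higher in ATF6aKO and ATF6bKO (limma adjusted p = 0.00461 and 0.00437), and averaging its probes gave 0.35 and 0.43 on the log2 scale with no call. Chst2, a sulfotransferase, differed by -0.69 and -0.81 (limma adjusted p = 0.0107 and 0.00667), with -0.73 and no call in ATF6bKO without its replicate 1 (limma adjusted p = 0.0622) and -0.53 with the mean of its probes (limma adjusted p = 0.0357).

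Of 13 sulfatases and lysosomal enzymes that break the chains down, 1 (Sumf1) rose and 3 fell in ATF6aKO. In ATF6bKO 0 rose and 4 fell, and the medians were -0.43 and -0.32. That is 30.8% called in each knockout. The probes standing for Galns, Idua and Sgsh read 16.7 to 18.4, higher than Acan on any array, and were not called. What these probes measure at that level was not tested, and they enter the counts and medians. Arsb, the sulfatase that removes sulfate from carbon 4, stood at 8.46 and 7.79 on the ATF6aKO arrays, 7.82 and 8.03 on the ATF6bKO arrays, and 10.52 and 9.26 on the WT arrays. It was 3.40-fold and 3.89-fold lower in ATF6aKO and ATF6bKO (limma adjusted p = 0.0109 and 0.00843), and the calls were lost without ATF6aKO replicate 2 (adjusted p = 0.0887) and without ATF6bKO replicate 1 (adjusted p = 0.0602). Without WT replicate 1, which had the highest level, the log2 difference was -1.14 in ATF6aKO and -1.33 in ATF6bKO, against -1.76 and -1.96 with all arrays, and both were called (limma adjusted p = 0.00932 and 0.00519). Hyal1, a lysosomal hyaluronidase, was 2.97-fold and 2.27-fold lower in ATF6aKO and ATF6bKO (limma adjusted p = 0.00294 and 0.00989). The Hyal1 call in ATF6bKO was lost without either array of that genotype, at log2 differences of -1.24 and -1.13. Naglu, which acts on heparan sulfate, differed by -0.99 and -0.86 (limma adjusted p = 0.0035 and 0.00687), with 1 array of each knockout well above background and no call in ATF6bKO without its replicate 1, at -0.75 (limma adjusted p = 0.0636).

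**Figure D4:**
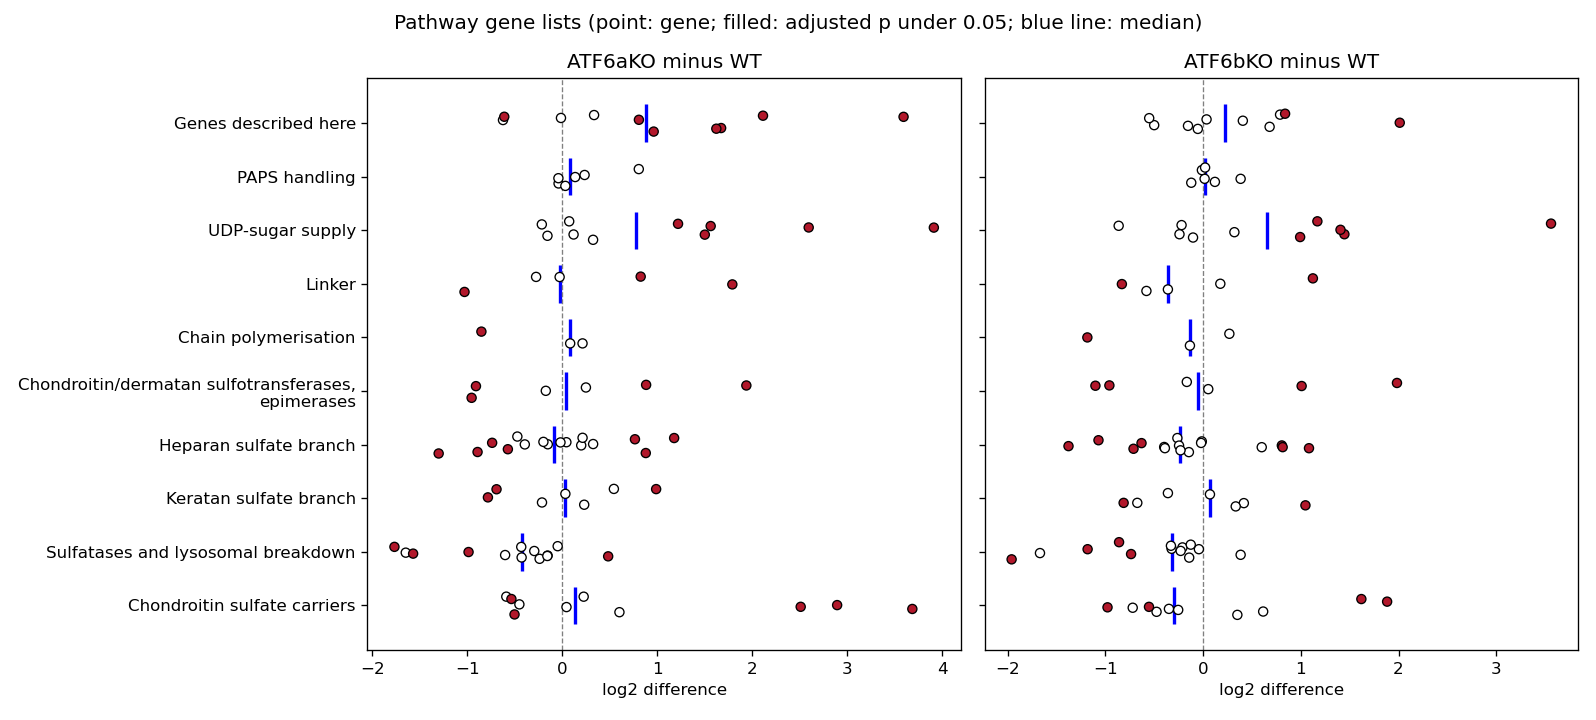
Log2 difference of each companion gene (points, horizontal axis) by pathway list (rows, with the 10 genes as a row of their own), for ATF6aKO minus WT and ATF6bKO minus WT; filled points have an adjusted p under 0.05 and the blue line is the list's median. The UDP-sugar list is the row with 5 filled points above 0 and 0 filled points below it in each panel. Most other rows have filled points on both sides. Over all genes 42.7% were called in ATF6aKO minus WT and 37.6% in ATF6bKO minus WT.

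The authors' deposited table of log2 values was set beside these results. Over 2527 probes, differences between its knockout columns correlated with those of the green channel of the same arrays at r = 0.995 to 0.998 and with those of the red, Cy5 channel at r = -0.219 to 0.091. These r are across probes, which are not independent replicates. Slc26a2, Papss2, Xylt1, Csgalnact1, Chst3 and Chst11 were not well above background in green on any knockout array. The knockout columns follow green and not red, so the deposited values do not check the red results of any of the 10 genes. In that table the difference between ATF6aKO and WT kept its sign for 9 of the 10 genes and turned for Chst3, and Acan, Col9a2, Pxylp1, Ndst2 and Naglu turned in both knockouts. In ATF6aKO, Chpf2, Dsel, Chst13, Cspg4, Extl2, B4galt4, Xylt2, Gfpt1, Gnpnat1, Ugp2 and Slc35d1 kept their sign there without a call, as did Cspg4, Extl2, B4galt4, Xylt2, Gfpt1, Ugp2 and Slc35d1 in ATF6bKO.

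**Figure D5:**
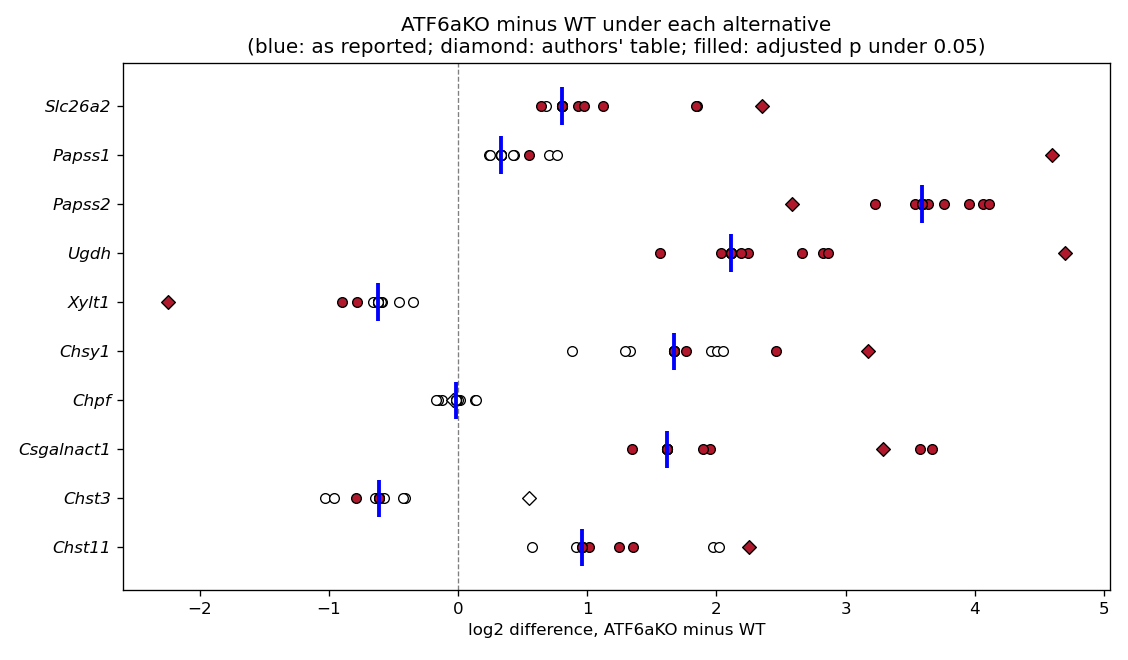
Log2 difference of each of the 10 genes for ATF6aKO minus WT (horizontal axis) under each alternative of processing, with the reported value in blue, the authors' deposited table as a diamond and filled points for an adjusted p under 0.05. Papss2, Ugdh and Csgalnact1 stay filled and above 0 in every alternative that tested them, while Chst3 and Chsy1 hold filled and open points. The diamonds rest on knockout columns whose differences follow the green channel.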

How the data were processed

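The deposited scanner files hold spot intensity, extracted with version 10.7.1.1 of Agilent Feature Extraction as the submitters' processing notes give it. Per the file headers, knockout arrays were read with a 2-channel Cy5-only protocol and WT arrays with a 1-channel protocol. Per the file headers, the flags for well above background, saturation and outliers are the authors' other values. The deposited value table holds log2 values of the authors, with column medians of 0.2 and 0.1 (ATF6aKO), 0 and 0.23 (ATF6bKO), and -0.5 and -0.5 (WT); its centring is unknown, and it served only as an alternative.

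From the median spot and background intensities (red for knockouts), background was corrected with normexp (limma 3.58.1, R 4.3.3, offset 50), which compresses differences of dim probes. Control and outlier spots were left out, log2 values were quantile normalised, and probes were kept that both arrays of some genotype measured well above background. The design had named the spot signal without its summary, and medians were used. Each gene was represented by its brightest kept probe, and both Chsy1 probes are given. One linear model over the 6 arrays (lmFit, eBayes) gave the 3 comparisons, with Benjamini-Hochberg adjustment over 19122 genes and a threshold of 0.05. The procedure was also run on simulated data with independent noise. Those data hold no slide or channel differences between genotypes, so the run does not check the calls made here. Symbols come from a RefSeq table of GRCm38.p6.

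The genes and lists were chosen with earlier results of these data known. The naming rule took all 10 genes, Acan, Atf6, Atf6b and, from each companion list and comparison, up to 2 genes of smallest p in each direction; which of these to print was chosen after their values were seen. Alternatives changed the background correction, scaling, filter, probe rule, source of the values, variance model, arrays included and replicate block.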

Additional observations from a re-analysis of the deposited data

Results flagged for a closer look

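Signal lay in a channel that the reported comparisons do not use, and that enters only the alternative with the authors' deposited table. The knockout arrays carry a green channel although the labels give Cy5 alone, and 11.4% and 9.59% of its spots in ATF6aKO and 12.5% and 8.45% in ATF6bKO were well above background. Among the 10 genes, Ugdh and Chpf were well above background in green on all 4 knockout arrays. The green spot intensity of Ugdh was 35 and 34 in ATF6aKO, the lowest being 34, and 49 and 36 in ATF6bKO, over a background of 13 to 15.5. That of Chpf was 41 and 43 in ATF6aKO, the lowest being 41, and 61 and 45 in ATF6bKO, over a background of 14 to 16. In the red channel used here, Ugdh read 432 and 852 in ATF6aKO and 240 and 154 in ATF6bKO, and Chpf read 3151 and 2580 in ATF6aKO and 2555 and 2148 in ATF6bKO. What the green signal stands for was not tested.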

How the results depend on the processing

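Papss2, Ugdh and Csgalnact1 kept their call in ATF6aKO against WT under every alternative that tested them. These alternatives include the authors' deposited table, which follows the green channel of the knockout arrays. Papss2 and Csgalnact1 were not well above background in green on any knockout array. Ugdh was, but that table follows green and not the red channel used here. It therefore does not check the call of any of these genes. Csgalnact1 and Chst11 could not be tested with the filter that asks for all 6 arrays. Over the 30 differences of the 10 genes, 416 alternative values kept direction and side of the threshold, 27 lost it, 15 gained it and 26 changed sign. The 416 include alternatives that cannot move a difference, such as leaving out an array of a genotype outside the comparison. They also include differences between ATF6aKO and ATF6bKO, none of which was called as reported. The total therefore does not measure how stable the calls are. The count called in ATF6aKO against WT, 7 of 10, was 4 with the processed signal under either scaling and 3 to 8 without 1 array (3 without ATF6aKO replicate 2). In ATF6bKO against WT, 2 of 10, it was 1 with the all-array filter, 1 with a trended and robust variance (Papss2 lost), 6 in the authors' deposited table and 0 to 4 without 1 array (0 without ATF6bKO replicate 1, 4 without WT replicate 1). Without 1 array, companion counts were 21 to 33 in ATF6aKO and 14 to 36 in ATF6bKO against WT. Counts over all genes were then 4682 to 8061 in ATF6aKO and 3080 to 7019 in ATF6bKO, against 8157 and 7190 as reported, and 0 to 8 between ATF6aKO and ATF6bKO.

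Scaling to the 75th percentile shifted the median of all genes to 0.13 in ATF6aKO and 0.16 in ATF6bKO against WT, and the authors' deposited table to 0.85 in each. The split of all genes was 5163 higher and 3601 lower in ATF6aKO and 4828 higher and 3053 lower in ATF6bKO under that scaling, against 3886 and 4271 in ATF6aKO and 3313 and 3877 in ATF6bKO as reported.

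Deviations of same-numbered arrays correlated at r = -0.156 for ATF6aKO and ATF6bKO, -0.074 for ATF6aKO and WT, and 0.197 for ATF6bKO and WT. These r are across genes, with 2 arrays per genotype, and cannot tell whether the replicate numbers mark pairs. With the replicate block, 5 of the 10 genes were called in ATF6aKO against WT, 2 in ATF6bKO against WT and 0 between ATF6aKO and ATF6bKO. The companion counts were 28, 28 and 0, and those of all genes 7594, 6630 and 0.

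Several signs turned. For ATF6aKO against WT, Chpf was 0.016 with 75th percentile scaling and -0.17 to 0.14 without 1 array, and Chst3 was 0.55 in the authors' deposited table. For ATF6bKO against WT, values without 1 array spanned -0.052 to 0.12 for Papss1, -0.006 to 1.58 for Chsy1, -0.21 to 0.10 for Chpf and -0.55 to 0.24 for Chst11. Chpf was there 0.029 with the processed signal at the 75th percentile and 0.13 in the authors' deposited table, where Chst3 was 0.50. Chst11 was 0.33 with 75th percentile scaling and 2.20 in that table, where it was called (limma adjusted p = 0.0104). That table follows green, in which neither Chst3 nor Chst11 was well above background on any knockout array. For ATF6aKO against ATF6bKO, values without 1 array spanned -0.40 to 0.15 for Xylt1, -0.10 to 0.18 for Chpf and -0.27 to 0.15 for Chst3. Chpf was -0.056 with the processed signal and -0.033 with it at the 75th percentile, and Chst3 was 0.015 and 0.14. The authors' deposited table gave -0.40 for Ugdh, -0.17 for Chpf and 0.05 for Chst3. For companion genes that table gave, in ATF6aKO and ATF6bKO, -0.65 and -1.75 for Acan, -0.20 and -2.40 for Col9a2, -0.63 and -0.65 for Pxylp1, 4.25 and 4.35 for Ndst2, and 1.45 and 1.0 for Naglu. The cause of these changes was not tested.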
